A study of Mus musculus with 8 samples.

Results

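The genes described here are Fshr and Lhcgr, which encode the receptors for follicle-stimulating hormone (FSH) and luteinizing hormone (LH), and Cyp19a1 and Hsd17b1, which encode enzymes of estradiol synthesis. These 4 genes were chosen by name, with earlier results of these data known, out of 35087 rows with a gene name. Each was read in all 8 libraries. RNA came from granulosa cells, which line the ovarian follicle around the oocyte, cut from frozen sections of mouse ovaries by laser microdissection. Female mice of both groups were Hif1a flox/flox, so the controls also carried alleles that Cre recombinase can excise. The group called cKO (2 libraries) also carried Foxl2-CreERT2, a Cre that tamoxifen activates and that is expressed from the granulosa gene Foxl2. The group called WT (6 libraries) lacked it. Tamoxifen was given to both groups at 100 mg/kg daily for 5 days, starting when the mice were 3 weeks old, and the ovaries were collected after 7 more days.

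Background on the pathway is as follows. FSH from the pituitary acts on granulosa cells through a receptor that raises cyclic AMP, and this signal induces aromatase, the product of Cyp19a1, and later the LH receptor. Theca cells, in the follicle wall outside the granulosa layer, make androgens, and granulosa cells turn these into estrogens. Aromatase makes estrone from androstenedione, and the enzyme encoded by Hsd17b1 reduces estrone to estradiol, the more potent estrogen. In mouse ovaries Fshr and Hsd17b1 are known as granulosa genes, whereas Lhcgr is expressed in theca cells and in the granulosa cells of large follicles.

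The libraries held from 651426 to 2054584 reads on named genes in cKO and from 1594803 to 4719293 in WT. The library name in the description begins with cKO for all 8 samples, and groups were taken from the titles. The genotype label calls the cKO samples a knockdown. Neither the animal behind a library nor the stage of its follicles is stated. P-values therefore measure only the spread between these libraries, and they are too small if libraries share an animal. Hif1a, the targeted gene, was at 22.3 and 13.7 CPM (read counts scaled to a common library size) in cKO, below each WT library (from 35.5 to 106.2 CPM). The number of genes with at least 5 reads did not overlap between the groups, with at most 12847 in cKO and at least 13597 in WT. The mitochondrial genome took 8.87% and 10.5% of reads in cKO and from 1.42% to 3.65% in WT. With mitochondrial genome genes removed, the log2 difference of Fshr was -3.09 and that of Hsd17b1 -3.03, the same as with them. That fit kept 15089 of 15102 genes in the same libraries, so it cannot show whether the difference in mitochondrial share matters. A fit with detected genes as a covariate is given with the results.

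Fshr and Lhcgr lie near each other on chromosome 17 (GRCm38, minus strand), Lhcgr from 88716481 to 88791990 and Fshr from 88984952 to 89200675. Cyp19a1 lies on chromosome 9, from 54165937 to 54268110 on the minus strand, and Hsd17b1 on chromosome 11, from 101078411 to 101080527 on the plus strand. No other gene in GENCODE M21 overlaps any of the 4. RefSeq start regions (250 bases before to 50 after a start, build GRCm38.p6) were found for 3 of the 4 genes, with 3 starts for Cyp19a1. The start regions of the neighbouring receptor genes are shown because Fshr was the 1 gene of the 4 whose groups did not overlap in CPM, and Lhcgr was not. Capitals mark a match to a motif searched for on both strands.
Fshr, chr17:89200626-89200925, minus strand: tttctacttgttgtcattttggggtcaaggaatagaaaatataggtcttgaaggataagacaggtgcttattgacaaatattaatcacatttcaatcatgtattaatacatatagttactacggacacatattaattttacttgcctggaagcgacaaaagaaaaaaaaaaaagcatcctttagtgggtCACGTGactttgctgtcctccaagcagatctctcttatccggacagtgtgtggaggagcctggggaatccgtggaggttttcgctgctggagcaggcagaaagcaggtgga
Lhcgr, chr17:88791965-88792264, minus strand: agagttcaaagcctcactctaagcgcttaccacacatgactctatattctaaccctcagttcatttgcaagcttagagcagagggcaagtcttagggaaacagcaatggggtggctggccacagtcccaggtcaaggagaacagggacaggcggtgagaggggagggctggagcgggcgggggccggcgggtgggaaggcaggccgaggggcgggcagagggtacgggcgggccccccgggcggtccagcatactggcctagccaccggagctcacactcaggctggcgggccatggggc
Searches were made for the HIF core ACGTG. A second form of that core is GCGTG. The E-box that USF factors bind is CACGTG, the element of NR5A factors such as steroidogenic factor 1 is AAGGTCA, and the core of a cyclic AMP response element is TGACG. FOXO factors bind GTAAACA, and factors of the family named GATA bind AGATAA. The Fshr region held CACGTG, starting 61 bases before the start. CACGTG contains ACGTG on each strand, so the matches to both motifs are the same 6 bases. Of 32851 RefSeq start regions of this length, 7.15% held CACGTG and 19.6% held ACGTG. The Lhcgr region and the 3 Cyp19a1 regions held none of the motifs. Only the Fshr start is the same in RefSeq and GENCODE M21. The RefSeq start of Lhcgr (88792014) lies upstream of the GENCODE one. The last bases of each Cyp19a1 region were absent from the spliced sequence of every GENCODE transcript of that gene. Some of these regions do lie within the span of such a transcript, introns included. The Lhcgr and Cyp19a1 regions are therefore not matched in position to the Fshr region. GCGTG was in 32.4% of all regions, AAGGTCA in 4.72%, TGACG in 20.8%, GTAAACA in 3.65% and AGATAA in 11.2%. The base composition differed, with 40.7% G and C in the Fshr region and 64% in the Lhcgr region. A match is a description of the sequence, and binding was not measured.

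All 4 genes had a lower mean normalised read count in cKO than in WT. The median of their log2 fold changes was -2.72, against -0.08 over all 15102 genes tested, of which 52.7% were below 0. At an adjusted p under 0.05 in edgeR's quasi-likelihood test, 0 of the 4 were called, as were 0% of all genes. At an unadjusted p under 0.05, 3 of the 4 (Fshr, Hsd17b1 and Cyp19a1) were lower, against 8.89% of all genes lower at that p. DESeq2 gave an adjusted p under 0.05 to 2 of the 4, Fshr and Hsd17b1, against 3.53% of the 6881 genes to which it gave an adjusted p called lower. No gene of the 4 was called higher by DESeq2, against 0.451% of all genes. A log2 fold change below -3 was found for 2 of the 4, Fshr and Hsd17b1, and for 2.51% of all genes. Both cKO libraries lay below every WT library for 1 of the 4, Fshr, as they did for 6.41% of all genes, and above every WT library for 0 of the 4 and 6.02% of all genes. In bulk samples such as these, fewer cells of a type and less RNA per cell cannot be told apart.

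**Figure D1:**
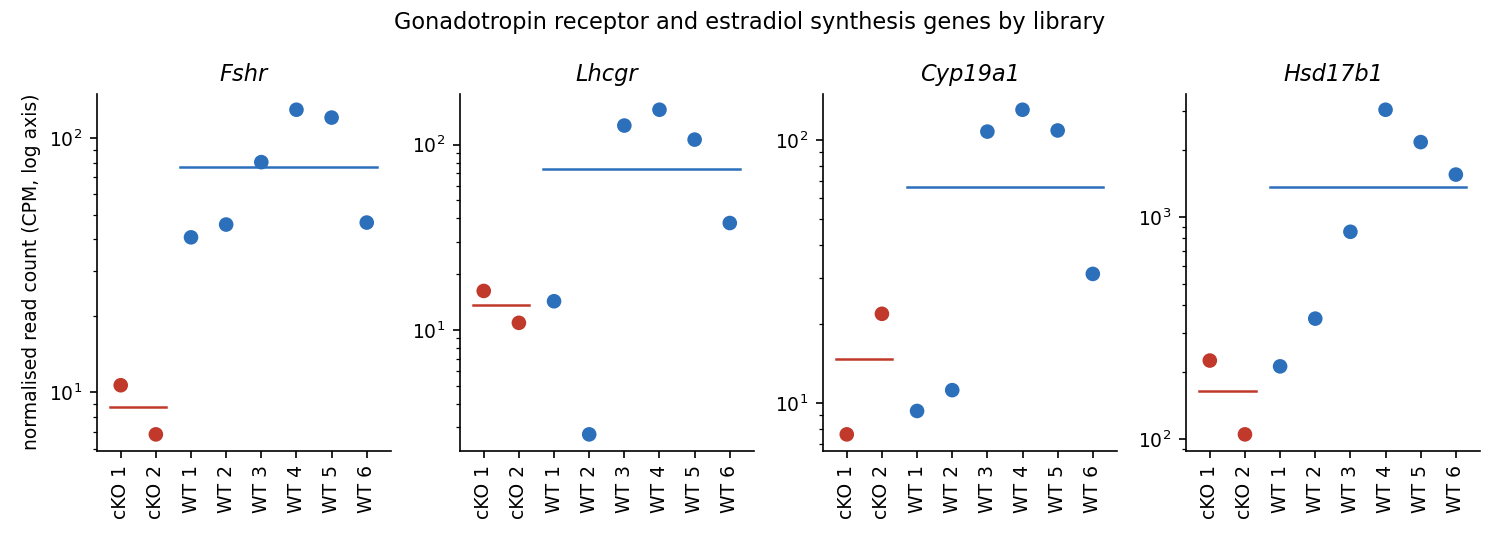
Normalised read count (CPM, log axis) of each gene in the 2 cKO libraries (red) and the 6 WT libraries (blue), with 1 point per library and a line at each group mean. The groups are apart for Fshr, while WT replicate 1 lies between the cKO libraries for Lhcgr, Cyp19a1 and Hsd17b1, and WT replicate 2 lies below both for Lhcgr.

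Fshr, the receptor through which FSH drives follicle growth, had 10.7 and 6.83 CPM in cKO replicates 1 and 2, from 21 and 5 reads. It had 40.7, 45.7, 80.3, 129, 120 and 46.5 CPM in WT replicates 1 to 6, from 74 to 534 reads. Each cKO library was low and each WT library was higher, and the lowest WT library was 3.82 times the highest cKO library. The 95% exact Poisson interval, which covers counting error only, reached up to 16.3 and 15.9 CPM in the cKO libraries and down to 31.9 CPM in WT replicate 1, so these intervals did not meet. The cKO mean was 8.74 ± 2.71 CPM (SD, n = 2) and the WT mean 77.1 ± 39.6 CPM (SD, n = 6). The log2 fold change was -3.09 ± 0.67 (SE), which is 8.52-fold lower in cKO. Its edgeR adjusted p = 0.369 (unadjusted p = 0.000415, the 11th smallest of all genes), and its DESeq2 adjusted p = 0.00178. Among the WT libraries alone Fshr ranged over 3.18-fold.

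Lhcgr, the LH receptor gene, had 16.2 and 10.9 CPM in the cKO libraries, from 32 and 8 reads. It had 14.3, 2.73, 127, 154, 106 and 37.8 CPM in WT replicates 1 to 6. WT replicate 2 was below both cKO libraries, WT replicate 1 lay between them, and WT replicates 3 to 6 were above them. Lhcgr spanned 56.4-fold among the WT libraries, a range that rests on the 10 reads of WT replicate 2, and Cyp19a1 spanned 13.95-fold and Hsd17b1 14.2-fold. The cKO mean was 13.6 ± 3.76 CPM (SD, n = 2) and the WT mean 73.7 ± 63.6 CPM (SD, n = 6). On the log2 scale cKO differed from WT by -2.41 ± 1.15 (SE), with an adjusted p = 0.416 in edgeR and 0.146 in DESeq2.

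Cyp19a1, the aromatase gene, had 7.61 and 21.9 CPM in the cKO libraries, from 15 and 16 reads. It had 9.34, 11.2, 108, 130, 109 and 31.0 CPM in WT replicates 1 to 6. WT replicates 1 and 2 lay inside the cKO range, and WT replicates 3 to 6 lay above it. The exact Poisson intervals of the cKO libraries, 4.26 to 12.6 and 12.5 to 35.5 CPM, met only at their ends. The cKO mean was 14.7 ± 10.1 CPM (SD, n = 2) and the WT mean 66.4 ± 55.01 CPM (SD, n = 6). On the log2 scale cKO differed from WT by -2.25 ± 1.05 (SE), with an adjusted p = 0.406 in edgeR and 0.175 in DESeq2. The value rested in part on 1 library, at -3.19 without cKO replicate 2 and -1.60 without cKO replicate 1.

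Hsd17b1, whose product makes estradiol from estrone, was the most abundant of the 4. In cKO it had 226 and 105 CPM, and it had 213, 349, 856, 3029, 2167 and 1548 CPM in WT replicates 1 to 6. WT replicate 1 lay between the cKO libraries and WT replicate 2 was near them, while WT replicates 3 to 6 were several times higher. The overlap with WT replicate 1 depended on the unit. On CPM without the TMM scaling factor the cKO libraries had 217 and 118 CPM and the lowest WT library 243, and on TPM (transcript abundance scaled by length) they had 149 and 94.8 against 182, so the groups did not overlap on either scale. The shares of all genes with every cKO library below every WT library were 6.96% and 7.07% on those scales. The cKO mean was 165.5 ± 85.3 CPM (SD, n = 2) and the WT mean 1360.3 ± 1101.4 CPM (SD, n = 6). On the log2 scale cKO differed from WT by -3.03 ± 1.02 (SE), with an adjusted p = 0.369 in edgeR and 0.0131 in DESeq2. The value was -3.69 without cKO replicate 1.

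The direction for Lhcgr and Cyp19a1 depended on which WT libraries entered. Among the libraries numbered 1 and 2 of each group, the log2 fold change of Lhcgr was 0.70 and that of Cyp19a1 0.54, while Fshr was at -2.22 and Hsd17b1 at -0.71. When the detected genes per library entered as a covariate, the values were -1.53 for Fshr, -1.19 for Cyp19a1, -0.96 for Lhcgr and -0.45 for Hsd17b1. None of the 4 had an adjusted p under 0.05 in either fit (edgeR). Fshr was between -3.49 and -2.86 over the fits that left out each library in turn. When cKO replicate 2 was left out, Fshr was the 1 gene of the 4 with an unadjusted edgeR p under 0.05, while the p was 0.0819 for Hsd17b1 and 0.0664 for Cyp19a1. For Cyp19a1 that p was also above 0.05 when cKO replicate 1 (0.274) or WT replicate 3, 4 or 5 (0.0988, 0.0799 and 0.0936) was left out. Without the filter on low counts, edgeR gave an adjusted p under 0.05 to all 4, 0.000533 for Fshr, 0.00646 for Hsd17b1, 0.00842 for Lhcgr and 0.021 for Cyp19a1, against 1.6% of 25322 genes called lower in that fit.

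**Figure D2:**
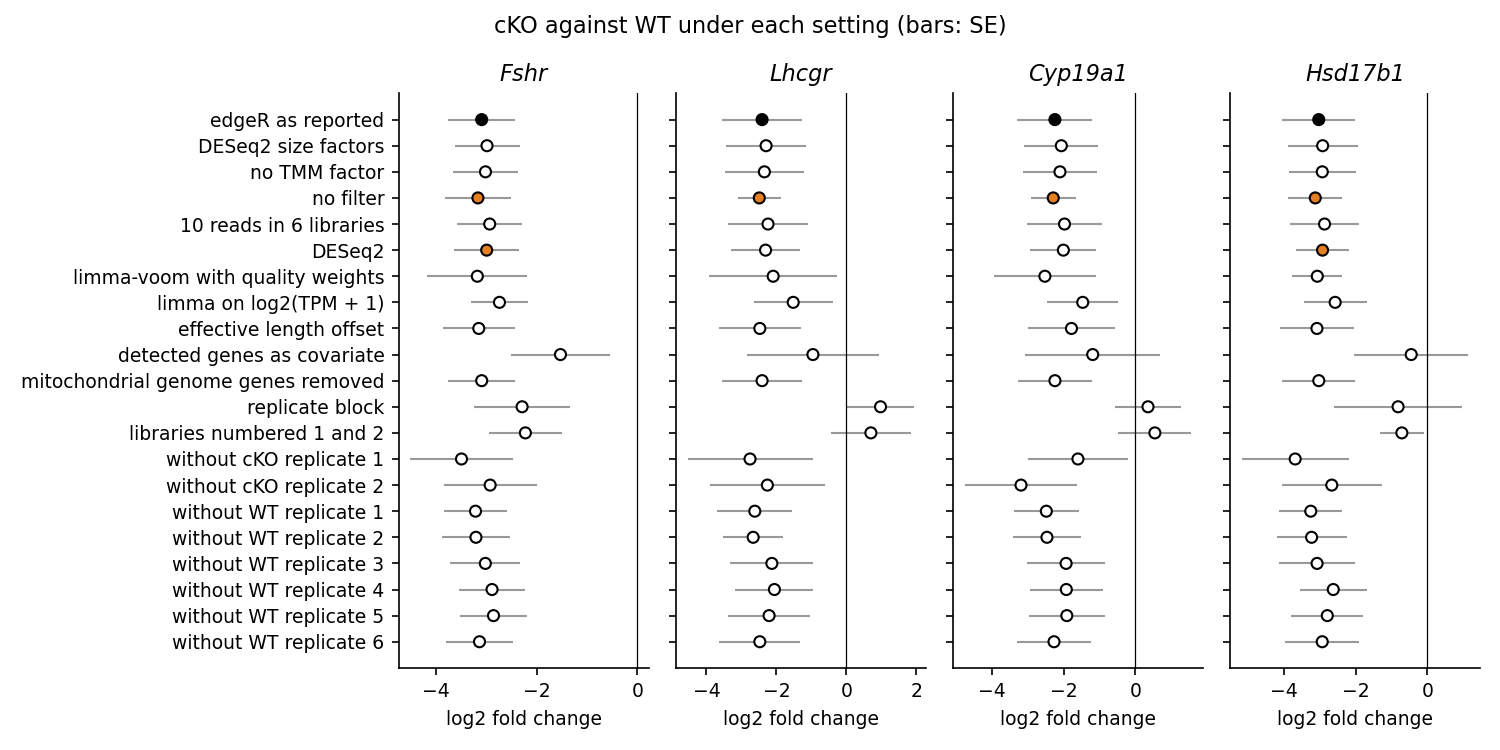
Log2 fold change of each gene, cKO against WT, in the edgeR fit reported here (black) and under each other setting, with bars of 1 SE. Orange points have an adjusted p under 0.05 and white points do not. Fshr stays between -3.49 and -1.53, while Lhcgr and Cyp19a1 are above 0 with the replicate block and in the libraries numbered 1 and 2. Both of these settings compare the same libraries.

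Levels of different genes were compared on TPM, which is per length. Hsd17b1 was the highest of the 4 in 8 of 8 libraries, from 8.64 to 55.3 times the next gene. In cKO it had 149 and 94.8 TPM, and in WT from 182 to 2114 TPM. The order of the other 3 genes changed from library to library. Fshr was the second in WT replicates 1, 2, 4, 5 and 6, Lhcgr in cKO replicate 1 and WT replicate 3, and Cyp19a1 in cKO replicate 2. In the cKO libraries Fshr had 4.22 and 3.70 TPM, Lhcgr 5.12 and 4.71 TPM, and Cyp19a1 2.87 and 10.8 TPM. In WT the medians were 34.0 TPM for Fshr, 27.0 TPM for Lhcgr and 28.4 TPM for Cyp19a1. The mean TPM of these 3 genes in WT, 35.8 ± 17.8, 28.2 ± 24.1 and 27.8 ± 23.1 (SD, n = 6), differed by less than their spread.

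The TPM of Cyp19a1 is less certain than that of the others. The deposited length of the gene, which the deposited tables give for each library, was 2079 bases for Fshr, 2553 for Lhcgr and 1339 for Hsd17b1 in every library. For Cyp19a1 it was 830 and 489 bases in the cKO libraries and 704, 1596, 489, 881, 1480 and 1297 bases in WT replicates 1 to 6. Salmon reports a gene's length as a mean over its transcripts weighted by abundance, so it moves with how reads are divided among transcript models. GENCODE M21 lists 5 Cyp19a1 transcripts, of which Cyp19a1-201 and Cyp19a1-203 encode protein, with 9 exons and 2373 and 2451 bases, while Cyp19a1-202 and Cyp19a1-204 are noncoding and have 201 and 373 bases. The protein-coding models of Fshr and Lhcgr in GENCODE M21 have 2360 and 6828 bases, which differ from the deposited lengths too, so those lengths cannot be read against these models. With effective lengths as an offset, the log2 fold change of Cyp19a1 was -1.78, and that of Fshr -3.15.

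The ratio of the receptors within a library does not depend on library scaling. Lhcgr relative to Fshr was 1.21 and 1.27 in the cKO libraries, on TPM with 0.1 added. In WT replicates 1 to 6 the ratio was 0.284, 0.0538, 1.26, 0.953, 0.705 and 0.649. WT replicate 3 lay between the cKO libraries and the other WT libraries lay below them. The mean log2 ratio was 0.31 ± 0.048 (SD, n = 2) in cKO and -1.15 ± 1.67 (SD, n = 6) in WT, a difference of 1.46 (exact two-sided permutation test over 28 splits, p = 0.321, adjusted over 2 ratios 0.357). The smallest p this design can give is 0.0357. The difference was 0.84 without WT replicate 2. Cyp19a1 relative to Hsd17b1 had a mean log2 ratio of -4.38 ± 1.78 (SD, n = 2) in cKO and -5.37 ± 0.89 (SD, n = 6) in WT, a difference of 0.99 (exact permutation p = 0.357, adjusted 0.357). That difference came from cKO replicate 2 and was -0.27 without it.

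**Figure D3:**
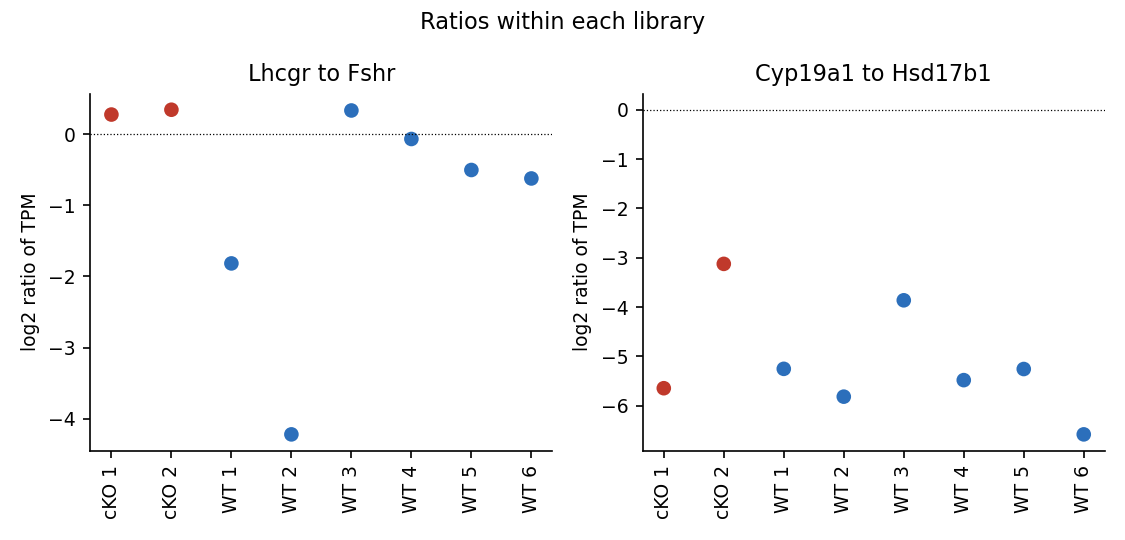
Log2 ratio of TPM (0.1 added) of Lhcgr to Fshr and of Cyp19a1 to Hsd17b1, with 1 point per library, cKO in red and WT in blue. The dotted line marks equal levels. WT replicates 1 and 2 have the lowest Lhcgr to Fshr ratios, and Cyp19a1 is below Hsd17b1 in each library.

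Granulosa markers did not all lie on one side. The summed level of 8 granulosa markers (Foxl2, Amh, Inha, Fst, Nr5a2, Kitl, Gja1 and Wt1) was 4387 and 1537 CPM in cKO and from 3198 to 48487 CPM in WT (median 16464), with 6 of the 8 lower and 2 higher in cKO. The exact permutation p was 0.107, or 0.295 adjusted over 11 comparisons. Amh had 610 and 224 CPM in cKO and from 2.34 to 1126 CPM in WT, and Foxl2 had 126 and 88.8 CPM in cKO and from 91.4 to 332 CPM in WT, so both overlapped. Relative to this sum, Hsd17b1 was at 5.15% and 6.84% in cKO and from 4.59% to 8.61% in WT. Relative to Foxl2 alone it was at 1.79 and 1.18 in cKO and from 1.43 to 23.5 in WT, a far wider range. Fshr was 0.243% and 0.444% of the sum in cKO and from 0.259% to 1.27% in WT, so the groups overlapped on this scale. Inha, the inhibin alpha gene, was the largest member of the sum in each library and had 2580 and 652 CPM in cKO and from 1380 to 42623 CPM in WT. Relative to Foxl2 alone, Fshr was 0.0843 and 0.0769 in cKO and from 0.197 to 1.30 in WT, with no overlap. The part of these markers in the differences above was not tested.

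**Figure D4:**
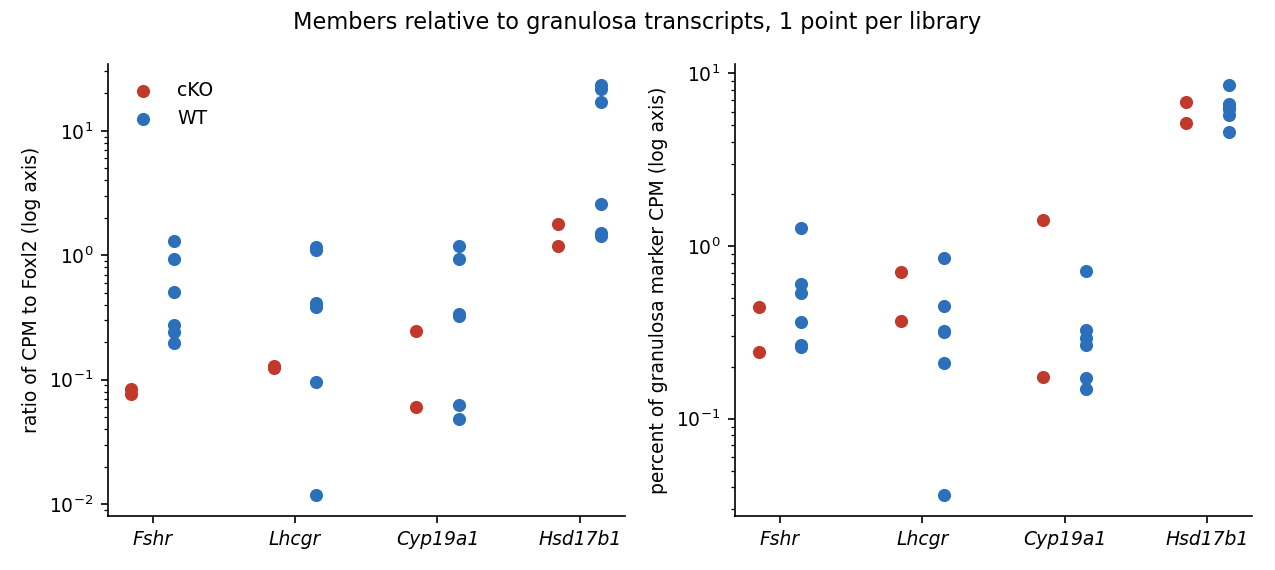
Each gene relative to Foxl2 (left, ratio of CPM, log axis) and as a percent of the summed CPM of 8 granulosa markers (right, log axis), with 1 point per library, cKO in red and WT in blue. Fshr is apart between the groups relative to Foxl2 (0.0843 or less in cKO and 0.197 or more in WT) and overlaps relative to the marker sum, where Hsd17b1 lies between 4.59% and 8.61% in all 8 libraries.

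Markers of other cell types were measured because Lhcgr is also a theca gene and the dissection can include neighbouring cells. The 5 theca markers (Cyp17a1, Insl3, Ptch1, Gli1 and Hhip) summed to 213 and 143 CPM in cKO and from 41.5 to 259.5 CPM in WT, with 2 lower and 3 higher. Cyp17a1, the androgen-making enzyme gene that defines theca cells, had 81.7 and 13.7 CPM in cKO and 7.69, 10.1, 46.0, 81.5, 171 and 0 CPM in WT replicates 1 to 6. WT replicate 6 had 37.8 CPM of Lhcgr and no read of Cyp17a1, Insl3, Gli1 or Hhip, but 41.5 CPM of Ptch1. WT replicates 3, 4 and 5 had the highest WT values of both Lhcgr and Cyp17a1. In contrast, cKO replicate 1 had 81.7 CPM of Cyp17a1 and 16.2 CPM of Lhcgr. The source of the Lhcgr reads was not tested. The 6 stroma markers summed to 1154 and 281 CPM in cKO and from 16.1 to 875 CPM in WT (median 422). All 6 had a log2 fold change above 0, but the 2 cKO libraries differed. The sum of the first lay above every WT library, and that of the second lay below the WT median. The 6 endothelial markers summed to 297 and 255 CPM in cKO and from 87.1 to 420 CPM in WT, with 5 higher. Immune markers summed to 46.2 and 30.1 CPM in cKO, above every WT library (from 1.69 to 26.9 CPM), with 3 of 4 tested higher and 1 lower. Surface epithelium markers summed to 19.8 and 23.2 CPM, below every WT library (from 25.8 to 73.0 CPM). Of these, Krt8 was below every WT library and Krt18 overlapped. Krt19 and Upk3b were higher in cKO replicate 2 (2.73 and 8.20 CPM) than in any WT library. Of all single genes, 6.02% were above every WT library and 6.41% below. Smooth muscle, red blood cell and luteal markers overlapped between the groups. No comparison had an adjusted p under 0.05. The smallest exact permutation p was 0.0357, for the mitochondrial share (0.262 adjusted over 11). It is the smallest p that 28 splits can give. A single comparison could therefore not pass after the adjustment, however far apart the groups were. The part of these markers and of the mitochondrial share in the differences above was not tested.

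Genes that FSH is known to induce in granulosa cells were mostly lower in cKO. Of 10 tested, 8 were lower and 2 higher. Their median was -1.86 on the log2 scale, against -0.08 over all genes. Inha, Fst and Gja1 are also among the granulosa markers above, and all 3 are among the genes that DESeq2 called. EdgeR called 0 at an adjusted p under 0.05, and 6 were lower and 1 higher at an unadjusted p under 0.05, against 8.89% and 3.40% of all genes. DESeq2 called 4 of the 8 to which it gave an adjusted p, all lower, against 3.53% of all genes. Nppc, which encodes the natriuretic peptide that holds oocytes in meiotic arrest, had 2.54 and 10.9 CPM in cKO and from 20.9 to 227 CPM in WT, with no overlap. On the log2 scale cKO differed from WT by -3.88 ± 1.06 (SE), with an adjusted p = 0.369 in edgeR and 0.00874 in DESeq2. It rested on 13 reads in cKO, and was at -5.16 when cKO replicate 2 was left out and at -2.999 when cKO replicate 1 was. Gja1, which encodes the gap junction protein connexin 43, was at -2.53 ± 0.89 (SE, DESeq2 adjusted p = 0.019), and Fst, which encodes the activin-binding protein follistatin, at -1.82 ± 0.67 (SE, DESeq2 adjusted p = 0.045). For Gja1 and Fst the cKO range included WT replicate 1, which had 469 and 208 CPM. Pappa, which encodes a protease of IGF-binding proteins, was the 1 gene of the list higher with no overlap, at 11.2 and 6.83 CPM against 0.39 to 2.72 CPM. It rested on 27 reads in cKO and 25 in WT, and was singled out with its values known. Of the 10 genes, 1 lay below every WT library and 1 above, against 6.41% and 6.02% of all genes. The list had a median of -0.44 in the libraries numbered 1 and 2 and -0.70 with detected genes as a covariate.

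Genes that carry the receptor signal had a median nearer to that of all genes. Of 28 tested (G proteins, adenylyl cyclases, protein kinase A subunits, phosphodiesterases, arrestins and others), 18 were lower and 10 higher, with a median of -0.39. EdgeR and DESeq2 called 0 of them. At an unadjusted p under 0.05 in edgeR, 4 were lower and 0 higher, against 8.89% and 3.40% of all genes. Of these, Prkar2b (-1.89) is also in the list of FSH-induced genes and is counted as lower there too. Prkacb, a catalytic subunit gene of protein kinase A, had a mean of 14.9 ± 0.219 CPM (SD, n = 2) in cKO and from 23.8 to 65.0 CPM in the WT libraries, with a log2 difference of -1.65 ± 0.58 (SE). Prkar1a, a regulatory subunit gene, was at -1.18 ± 0.49, and Mvk at -1.08 ± 0.44 (edgeR adjusted p = 0.369, 0.380 and 0.380 for these genes). Mvk encodes mevalonate kinase, which is also known to bind Lhcgr mRNA and lower its stability. For Prkacb, Prkar1a and Mvk every cKO library was below every WT library, as for 6.41% of all genes. Mvk was at -1.80 and -0.69, and Prkar1a at -1.77 and -0.84, when cKO replicates 1 and 2 were left out in turn. Gnas, the gene of the G protein subunit that the receptors act through, was at -0.43. The median of this list moved to -0.86 when cKO replicate 1 was left out and to -0.25 when cKO replicate 2 was, and it was 0.014 on log2(TPM + 1), where 13 were lower and 15 higher.

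Steroid enzymes around estradiol (16 tested of 20) had 12 members lower and 4 higher, with a median of -0.89. EdgeR called 0 and DESeq2 2 of 12, both lower (3.53% of all genes), and 3 were lower and 0 higher at an unadjusted p under 0.05 (8.89% and 3.40% of all genes). Hsd17b10, a mitochondrial dehydrogenase gene, was at -2.03 ± 0.71 (SE, edgeR adjusted p = 0.369, DESeq2 adjusted p = 0.0341). It was at -3.89 when cKO replicate 1 was left out and at -1.33 when cKO replicate 2 was. Cyb5a, which encodes cytochrome b5, was at -3.09 ± 1.17 (SE, edgeR adjusted p = 0.372, DESeq2 adjusted p = 0.0197), and -4.26 without cKO replicate 1. Hsd3b1, whose enzyme makes progesterone, was at -3.58 ± 1.38 (SE, edgeR adjusted p = 0.374, DESeq2 adjusted p = 0.0846), and at -4.60 when cKO replicate 1 was left out. WT replicate 1 lay within the cKO range for all 3, and the median of the list was -0.16 in the libraries numbered 1 and 2. Cyp17a1 was at -0.11 ± 1.32 (SE), and Cyp11a1, the gene of the first enzyme of steroid synthesis, at 0.12. Hsd17b2, Hsd17b8, Sult1e1 and Sts were not tested.

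Steroid receptors and transcription factors (17 tested of 19) had 13 members lower and 4 higher, with a median of -0.58, and 3 lower and 1 higher at an unadjusted p under 0.05, against 8.89% and 3.40% of all genes. EdgeR and DESeq2 called 0. Nr5a1, the gene of steroidogenic factor 1, which activates Cyp19a1, was at -1.51 ± 0.63 (SE, edgeR adjusted p = 0.380), and at -2.31 and -1.09 when cKO replicates 1 and 2 were left out in turn. Ctnnb1, the gene of beta-catenin, was at -2.35 ± 0.98 (SE, edgeR adjusted p = 0.380), and at -4.12 and -1.75 without cKO replicates 1 and 2. Wt1, a transcription factor gene of immature granulosa cells, was higher, with 109 and 71.0 CPM in cKO against 4.08 to 69.8 CPM in WT (log2 fold change 1.88 ± 0.76, SE, edgeR adjusted p = 0.378, and 2.52 without WT replicate 1). Wt1 is also among the granulosa markers. Of the estrogen receptor genes, Esr2, the granulosa form, was at -0.027 ± 0.44, with 367 and 232 CPM in cKO and from 204 to 422 CPM in WT. Esr1 was at -1.65 ± 0.71, with 26.4 and 17.8 CPM in cKO and from 12.5 to 114 CPM in WT. Both are described with their values already known. This list had a median of -0.028 in the libraries numbered 1 and 2 and -0.014 with detected genes as a covariate. Without cKO replicate 2, the genes lower at an unadjusted p under 0.05 numbered 1 of 10 for the FSH-induced genes, 1 of 28 for receptor signalling, 0 of 16 for the steroid enzymes and 1 of 17 for the receptors and transcription factors, and 563 over all genes in place of 1342. Over all genes the same count was 1956, 1225, 968 and 919 when WT replicates 1, 2, 4 and 5 were left out in turn. Without WT replicate 4 there was 1 of 28 for receptor signalling and 1 of 17 for the receptors and transcription factors, and without WT replicate 1 there were 7 of 16 for the enzymes and 7 of 17 for the receptors and transcription factors. Receptor signalling had 2 of 28 without WT replicate 5, and the enzymes 5 of 16 without WT replicate 2.

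**Figure D5:**
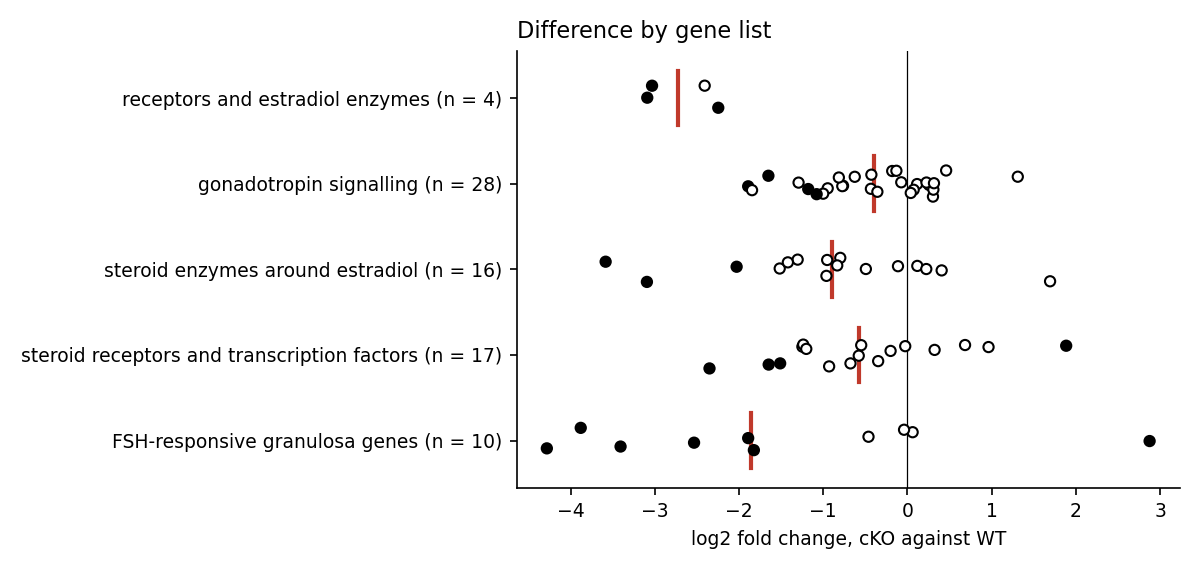
Log2 fold change, cKO against WT, of the 2 receptors and 2 estradiol enzymes and of the tested genes of each pathway list (number in brackets), with 1 point per gene and the median as a red bar. Filled points have an unadjusted p under 0.05 in edgeR and open points do not. Medians run from -2.72 for the 4 genes to -0.39 for gonadotropin signalling.

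Finally, genes with the most similar pattern over the 8 libraries were ranked by Pearson's r of log2(CPM + 1) among 7568 genes with a mean of at least 20 CPM. The libraries share differences in depth and makeup, so r is a description without a test. Fshr was most like Fkbp9 (r = 0.993), Fam3a (0.977), Hif1a (0.975), Anapc16 (0.973) and Rnf5 (0.972). Each had its highest cKO library below its lowest WT library, as did Fshr and 6.41% of all genes. They were ranked by likeness to Fshr in these same libraries, so this follows largely from the ranking. For these 5 genes r was between 0.898 and 0.983 in the 6 WT libraries alone. Lhcgr was most like Pdxdc1 (0.971), Elovl6 (0.963), Cldnd1 (0.963), Ppfibp1 (0.962) and Gata6 (0.960). Cyp19a1 was most like Nrip1 (0.987), which encodes a coregulator of nuclear receptors, Tox (0.977), Ppp3r1 (0.963), Prss35 (0.952) and Cited2 (0.949). Hsd17b1 was most like Gja1 (0.990), Pepd (0.990), Laptm4a (0.989), Cnn3 (0.989) and Tomm20 (0.988). None of the 4 genes was among the 5 most like another of the 4. The 5 were chosen for the highest r, so a lower r for every other gene follows from that choice. Between the 4, r was highest for Lhcgr and Cyp19a1 (0.893) and lowest for Fshr and Lhcgr (0.654). It was 0.868 for Fshr and Hsd17b1, 0.802 for Cyp19a1 and Hsd17b1, 0.786 for Lhcgr and Hsd17b1, and 0.720 for Fshr and Cyp19a1. Lhcgr ranked 1886th of 7568 genes in likeness to Fshr, and Cyp19a1 ranked 49th in likeness to Lhcgr.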

How the data were processed

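The deposited tables give, per library, estimated counts of reads (made by the authors with Salmon and HISAT2 on mm10, per the submitters' processing notes, versions not given in the sources used here), TPM and lengths. Per the labels' protocols, RNA was amplified by Smart-seq2 and made into libraries with Tn5, without molecular identifiers, so counting intervals cover counting error only. No source used here names the annotation. Rows without a gene name (1548 rows, from 0.435% to 0.739% of reads) were left out. Estimated counts were rounded, filtered with filterByExpr (minimum count 10, total 15), scaled by TMM and tested with edgeR 4.0.16 (glmQLFit, glmQLFTest) in R 4.3.3, with Benjamini-Hochberg adjustment over 15102 genes and a threshold of 0.05. Log2 fold changes are cKO minus WT, with an SE derived from the F statistic. Other tools were DESeq2 1.42.0 and limma 3.58.1. The median over all genes moved from -0.08 with TMM to 0.049 with DESeq2's size factors. A count of 0 allows up to 3 reads, which is 0.655 to 4.10 CPM by library. All 28 library pairs differed beyond sampling noise (lowest chi-square per degree of freedom 14.1).

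The 4 genes and all lists (4 pathway lists, 10 marker lists) were chosen with earlier results of these data known. Named genes were the 4 genes, Hif1a, the 3 genes with the smallest edgeR p in each pathway list, and the 5 most similar genes for each of the 4. Other genes are said to have been described after their values were seen, or are markers. The fit was tested on simulated counts of 15102 genes for cKO against WT. EdgeR called 15% of genes given a 4-fold change and 52% at 16-fold, with 3 false calls. With no gene changed it made 1 call. Changes went up and down in equal numbers, and genes varied independently, without differences shared among WT libraries. These rates are therefore not those of the 4 genes. Alternatives were other scalings, filters, tools, covariates and left-out libraries, and, added after seeing the data, similarity in WT libraries alone and without TMM. Coordinates are from GENCODE M21 (GRCm38) and start regions from RefSeq.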

Additional observations from a re-analysis of the deposited data

Results flagged for a closer look

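Among 47 sets of 6 WT values tested (named genes, marker sums and the 2 ratios), 1 held a library far from the others, where chance alone gives about 1 in 20. The summed level of 9 oocyte markers was 1728 CPM in WT replicate 6, while the other WT libraries had 6.57 to 499 CPM and the cKO libraries 52.3 and 30.1 CPM. The same library had the lowest Lhcgr, Cyp19a1 and Fshr of WT replicates 3 to 6 (37.8, 31.0 and 46.5 CPM). It did not have the lowest Hsd17b1 of them (1548 CPM, against 856 CPM in WT replicate 3). Over all 6 WT libraries, WT replicate 6 was the lowest for no gene of the 4. Without it the log2 fold change was -3.13 for Fshr, -2.47 for Lhcgr, -2.27 for Cyp19a1 and -2.94 for Hsd17b1.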

How the results depend on the processing

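Over 80 alternative fits of the 4 genes, 70 kept the direction and the side of the threshold, 6 passed it and 4 changed sign. None of the 4 was called in the reported fit, so no fit could lose a call, and the 70 do not measure stability. They include much smaller values, such as -1.53 for Fshr and -0.45 for Hsd17b1 with detected genes as a covariate. The sign changes were in Lhcgr and Cyp19a1, with the replicate block and in the libraries numbered 1 and 2. Both settings compare the same libraries. The fits that passed were those without a filter (-3.16 for Fshr, -2.49 for Lhcgr, -2.29 for Cyp19a1, -3.13 for Hsd17b1) and DESeq2 (-2.99 for Fshr, -2.93 for Hsd17b1). The count of called genes, 0 in the reported fit, was 478 without a filter, 274 with DESeq2, 5 with limma on log2(TPM + 1) and 1 with the replicate block, and the cause was not tested. At an unadjusted p under 0.05 the reported fit had 1342 genes lower and 513 higher, limma-voom 1028 and 1458, and the covariate of detected genes 349 and 141.

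Only numbers 1 and 2 occur in both groups, and they name no shared animal or batch. Deviations from the group means correlated at -0.29 for the libraries numbered 1 and -0.17 for those numbered 2. With 2 cKO libraries, their deviations are exact opposites, so these values are not separate checks of pairing. With the replicate number as a block the log2 fold change was 0.98 for Lhcgr, 0.35 for Cyp19a1, -2.29 for Fshr and -0.82 for Hsd17b1. WT replicates 3 to 6 were each alone in a block, so these values rest on the libraries numbered 1 and 2 only. Other signs that turned in the block were Pdxdc1 0.047, Cldnd1 0.068, Ppfibp1 0.25, Gata6 0.068, Tox 1.95, Prss35 0.72 and Cited2 0.38. The fit of the libraries numbered 1 and 2 without a block is thus not a separate check. The values that turned in it were Lhcgr 0.70, Cyp19a1 0.54, Pdxdc1 0.072, Cldnd1 0.017, Ppfibp1 0.29, Gata6 0.059, Nrip1 0.049, Tox 2.43, Prss35 0.81 and Cited2 0.37. With detected genes as a covariate they were Ctnnb1 1.13, Ppfibp1 0.19, Gata6 0.16, Prss35 0.51, Cited2 0.27 and Laptm4a 0.27. The cause was not tested.

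Leaving out each library in turn gave -3.49 to -2.86 for Fshr, -2.75 to -2.06 for Lhcgr, -3.19 to -1.60 for Cyp19a1 and -3.69 to -2.63 for Hsd17b1, and 0 genes called each time. With 1 cKO library left, that library is assumed to vary like the WT group. The log2 difference in the ratio of Lhcgr to Fshr was 0.84 to 1.75, and that of Cyp19a1 to Hsd17b1 -0.27 to 2.25. Depth limits single values, such as the 5 reads of Fshr and 8 of Lhcgr in cKO replicate 2.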
